A study of Mus musculus with 12 samples.

Results

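The 4 liver arrays of day 7 that compare mice given diethylnitrosamine (DEN) with mice that were not given it were examined, 4 of the 12 arrays of the series. They were taken by their titles and form 2 matched pairs, DEN against vehicle and all-trans retinoic acid (ATRA) with DEN against ATRA alone. Each pair lies on 1 slide and the pairs on different slides, so that a difference between the pairs and a difference between slides cannot be told apart. The pairs share no array. The study set DEN, a liver carcinogen, against ATRA, the active form of vitamin A, and against small interfering RNA (siRNA) to G0s2, in liver at day 2 and day 7.

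All the mice were wild type male ICR mice, an outbred stock, 5 weeks old at purchase and adapted for 1 week. The water they drank carried DEN at 80 mg/L, which gave each mouse roughly 400 µg daily, or ATRA at 30 mg/L, roughly 150 µg daily, or both. The vehicle mice were given water, whereas ATRA had first been dissolved in ethanol and dimethyl sulfoxide. Each group is 1 array, and the labels do not say whether its RNA came from 1 animal or from a pool, so values of single arrays carry no error. Where pairs are averaged, the standard error measures the spread between pairs, which may be technical.

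DEN is turned into a DNA-alkylating agent by cytochrome P450 enzymes, which in the liver lie mainly in hepatocytes around the central vein. Damaged DNA stabilises the transcription factor p53, which switches on genes that halt the cell cycle, genes that promote cell death, and its own inhibitor Mdm2. Retinoic acid acts through nuclear receptors and switches on the Cyp26 enzymes that break it down.

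Labels conflict for 3 of the 4 arrays, whose title and treatment characteristic name different agents. The characteristic gives ATRA for the DEN title, DEN for the ATRA+DEN title, and both agents for the ATRA title. Titles, which match the source names, were used throughout, and every direction below rests on them. Levels are log2 processed intensities minus the 75th percentile of the array, so a level of 0 is that percentile. Cyp26a1, the main retinoic acid hydroxylase of liver, had a level of 2.18 in the array titled vehicle, 1.17 in DEN, 6.90 in ATRA and 4.14 in ATRA+DEN. It was high in both arrays titled with ATRA. Cdkn1a, which encodes the p53-induced cell cycle inhibitor p21, was at 1.77, 6.65, 2.63 and 6.42 in the same order, high in both arrays titled with DEN.

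Between 42.9% and 46.2% of the 55681 probes were well above background on each of the 4 arrays. On the day-7 arrays, spots of 1 probe repeated on an array had a median SD of 0.067 to 0.076 on the log2 scale, and a 95th percentile of 0.26 to 0.32. That spread is technical and does not include differences between animals. Alb, Apoa1 and Ttr, defining markers of hepatocytes, were well above background on all 4 arrays, with Alb between 10.26 and 10.40.

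In the pair without ATRA, 1163 of the 16981 genes well above background on both arrays (6.85%) differed at least 2-fold, 595 higher with DEN (3.5%) and 568 lower (3.34%). In the pair with ATRA, 616 of 17561 (3.51%) did, 330 higher (1.88%) and 286 lower (1.63%). The 16632 genes measured on all 4 arrays are the base of what follows. Among them 138 genes (0.83%) were at least 2-fold higher with DEN in both pairs, and 83 (0.499%) at least 2-fold lower in both. The 138 higher genes are 24.4% of the 565 that were 2-fold higher without ATRA and 43.8% of the 315 with ATRA, where 3.40% and 1.89% of all genes were 2-fold higher in these pairs. For the 83 lower genes the shares are 15.0% of 555 and 34.4% of 241, where 3.34% and 1.45% of all genes were 2-fold lower. Across the 16632 genes, which are not independent replicates, the differences of the pairs correlated at r = 0.41. By sign alone, 28.3% of them were higher with DEN in both pairs and 33.5% lower in both. At the threshold, Zmynd12 with 1.17 and 1.00 lay just inside the shared higher genes and Cd59b with 1.54 and 0.996 just outside.

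A limma fit with the pair as a block, over all 12 arrays so that the other pairs help to estimate the spread, tested the mean DEN difference of the 2 pairs. It called 20 genes (0.12%) at an adjusted p under 0.05, of which 17 rose (0.102%) and 3 fell (0.018%), and all 20 belong to the shared classes. Before adjustment 2625 genes had p under 0.05, where 831.6 of 16632 would by chance. Of the 20 genes, 3 are predicted genes or clones, 1 higher and 2 lower. The calls need the other pairs for the estimate of spread, since 1 gene passed with only the 4 day-7 arrays. In simulated data of the same size the fit recovered 44% of genes changed 2-fold and 98% of those changed 4-fold, with 9 false calls. The simulation put the same change in both pairs with independent normal noise, so it does not cover genes whose change differs between pairs. In the data, Cdkn1a had a mean log2 difference of 4.34 and did not pass (limma adjusted p = 0.0755).

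**Figure D1:**
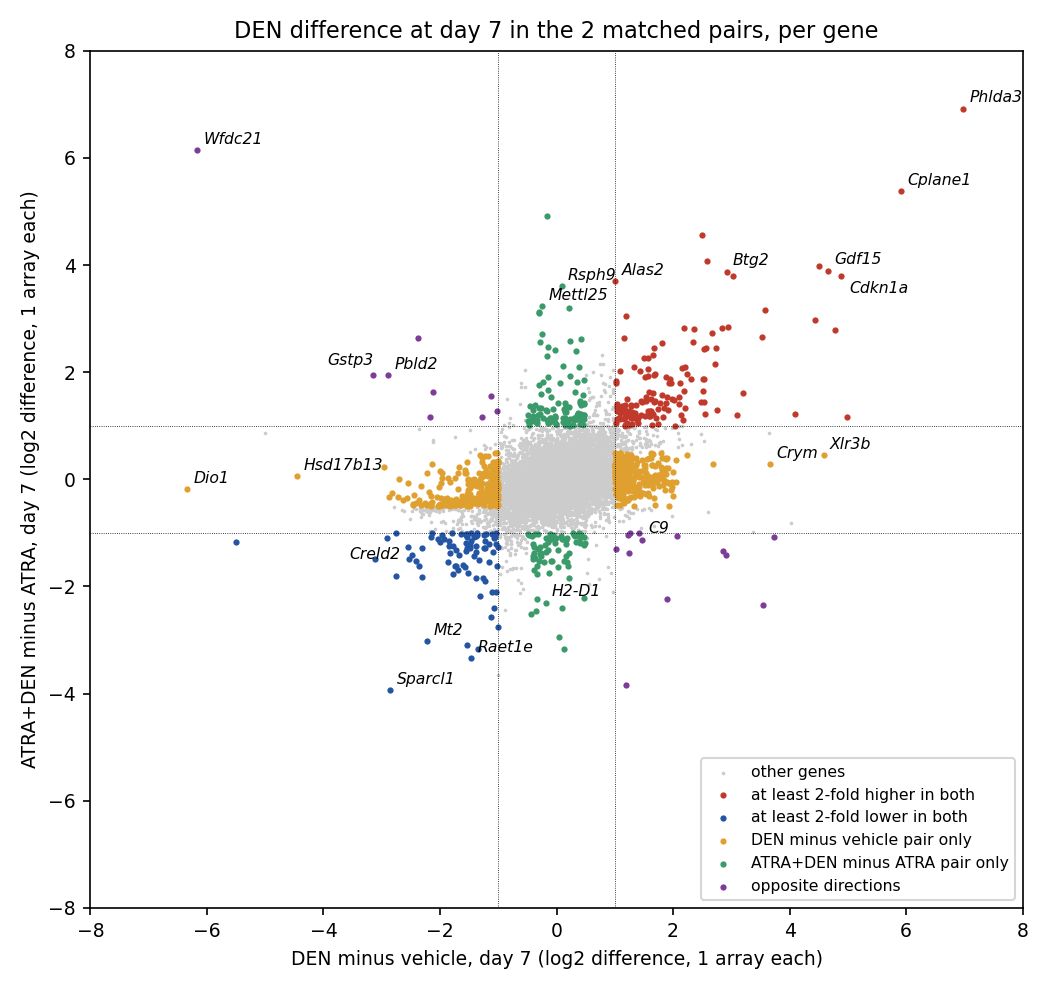
Each point is 1 of the 16632 genes, with the log2 difference DEN minus vehicle on the horizontal axis and ATRA+DEN minus ATRA on the vertical axis, 1 array per group. Dotted lines mark 2-fold. The 138 red points at the upper right include Phlda3 at 6.97 and 6.92, the 83 blue points at the lower left include Sparcl1 at -2.85 and -3.93, and Wfdc21 lies at -6.17 and 6.15.

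Genes that p53 switches on to stop the cell cycle, or to restrain p53 itself, formed the list with the highest median in both pairs. Of 15 such genes on the array 11 were measured on all 4 arrays, and 7 of those 11 were in the shared higher class, against 0.83% of all genes. Their median difference was 2.24 without ATRA and 1.97 with ATRA, where the median of all genes was -0.03 and -0.01. The fit called 1 of them, Trp53inp1, which encodes a nuclear protein that helps p53 induce arrest and death. Its level was 1.21 in vehicle and 4.78 in DEN, 1.20 in ATRA and 4.37 in ATRA+DEN. The mean rise over the 2 pairs was 3.37 ± 0.25 (limma SE, limma adjusted p = 0.033). Both arrays with DEN stood well above both without, which largely follows from its place in the shared higher class.

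Cdkn1a, with the levels given above, was 29.6-fold higher with DEN without ATRA and 13.8-fold higher with ATRA. Its mean log2 difference over the 2 pairs was 4.34 ± 0.58 (limma SE), and limma's adjusted p of 0.0755 missed the threshold. Mdm2, the ubiquitin ligase that removes p53, went from 3.63 in vehicle to 5.87 in DEN and from 3.54 in ATRA to 5.52 in ATRA+DEN (adjusted p = 0.0592). Plk2, a stress-responsive kinase, was at -2.11 and 2.32 in the first pair and at -1.31 and 1.67 in the second. The arrays with and without DEN did not overlap for any of these genes, which largely follows from their choice by a 2-fold difference in each pair.

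Btg2, an antiproliferative cofactor, was at -0.97 in vehicle, 1.96 in DEN, -1.70 in ATRA and 2.18 in ATRA+DEN. Ccng1, cyclin G1, gave nearly the same levels in both pairs, 0.55 to 3.49 and 0.57 to 3.42. Limma's adjusted p was 0.0592 for Plk2 and Ccng1 and 0.0747 for Btg2. The list was not uniform, since Sfn, a checkpoint protein of epithelia, was lower in both pairs, with differences of -0.91 and -0.90.

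In the death branch, 12 of 13 genes were measured, 11 of them were higher in both pairs (28.3% of all genes) and 5 at least 2-fold so (0.83% of all genes), with median differences of 0.74 and 0.87. Phlda3, a p53 target that blocks the survival kinase Akt, had the largest shared difference of all named genes measured. It was at -0.79 in vehicle and -1.22 in ATRA, below the 75th percentile, and at 6.18 in DEN and 5.70 in ATRA+DEN, far above it. That is 126-fold and 121-fold, a mean rise over the 2 pairs of 6.95 ± 0.47 (limma SE, limma adjusted p = 0.0285).

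Tnfrsf10b, the receptor through which the ligand TRAIL triggers death, rose from -2.54 to 1.97 without ATRA and from -2.22 to 1.76 with ATRA (mean 4.25 ± 0.35, SE, limma adjusted p = 0.0362). Siva1, a proapoptotic adaptor outside the lists, was at 2.47 and 4.14 in the first pair and at 2.68 and 4.29 in the second, and it rose by 1.64 ± 0.15 (SE, adjusted p = 0.0404). Aen, a nuclease that cuts DNA in dying cells, showed 4.38 in vehicle, 6.91 in DEN, 4.29 in ATRA and 6.15 in ATRA+DEN. All 3 were higher in both arrays with DEN than in either array without, which largely follows from their place in the shared higher class.

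The mitochondrial pore protein Bax and its activator Bbc3, also called Puma, moved less. Bax was 3.19-fold higher without ATRA and 2.71-fold with ATRA, and Bbc3 was 2.43-fold and 2.59-fold higher. Limma's adjusted p was 0.0767 for Aen, 0.0706 for Bax and 0.0755 for Bbc3. Fas, the other death receptor of the list, differed by only 0.69 and 0.68.

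In the third branch, of stress, metabolic and secreted p53 targets, 11 of 17 genes were measured, 7 were higher in both pairs (28.3% of all genes) and 3 were in the shared higher class (0.83% of all genes), with medians of 0.74 and 0.67. Gdf15, a circulating stress hormone that suppresses appetite, rose from 0.44 to 5.10 without ATRA and from 0.58 to 4.47 with ATRA. The mean rise over the 2 pairs was 4.27 ± 0.35 (limma SE, limma adjusted p = 0.0362). Polk, a polymerase that copies past damaged bases, was at -1.56, 0.98, -1.33 and 0.10 in vehicle, DEN, ATRA and ATRA+DEN. Dglucy, a mitochondrial D-glutamate cyclase, differed by 1.73 and 1.31, and Sesn2, a stress-induced regulator of growth signalling, by 1.70 and 0.94. None of Polk, Dglucy and Sesn2 passed limma, with adjusted p between 0.0683 and 0.131.

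DNA repair genes did not move as a list, with medians of -0.10 and -0.02 over 19 measured genes, 5 higher in both pairs and 7 lower in both, against 28.3% and 33.5% of all genes. The 2 in the shared higher class were Mgmt and Ercc5. Mgmt, which takes alkyl groups off guanine in DNA, was at 2.90 in vehicle, 5.21 in DEN, 2.73 in ATRA and 4.60 in ATRA+DEN (limma adjusted p = 0.0662). Ercc5, a nuclease of nucleotide excision repair, was higher by 1.09 and 1.24 (adjusted p = 0.0592). Rad51c, of homologous recombination, differed by -1.85 without ATRA and -0.57 with ATRA.

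**Figure D2:**
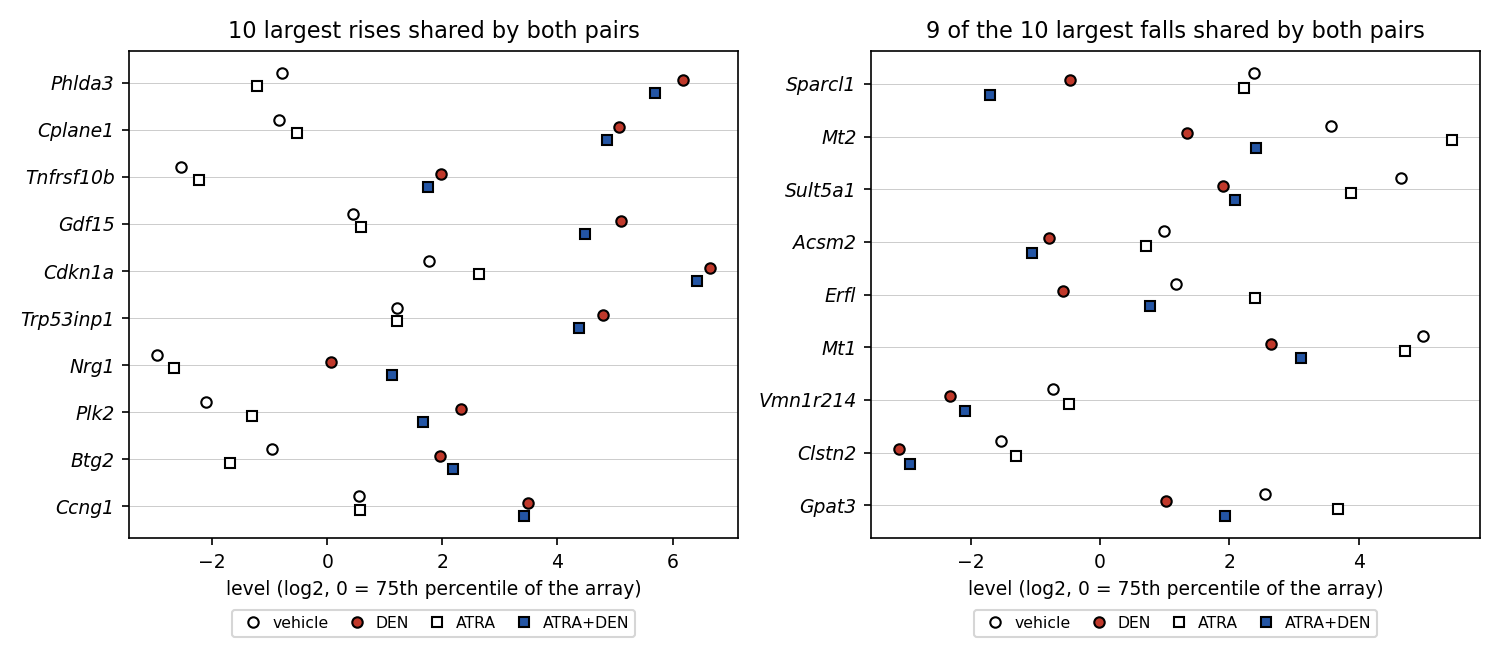
Levels on the 4 day-7 arrays (log2, 0 is the 75th percentile of the array) of the 10 largest rises, left, and 9 of the 10 largest falls, right, shared by both pairs. One symbol is 1 array, filled with DEN and open without. For each rise both filled symbols lie to the right of both open ones, as in Phlda3 at 6.18 and 5.70 against -0.79 and -1.22, and for each fall they lie to the left. That separation largely follows from the choice of the genes by their differences in both pairs.

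Promoter sequences show where the consensus of p53 lies in genes of this group. The RefSeq promoter table of build GRCm38.p6, from 250 bases before to 50 after a start, held 9749 of the 16632 genes and 95 of the 138 shared higher ones. The p53 consensus was searched as 2 copies of its 10-base unit with the central C and G of each kept, at most 2 mismatches in all and a spacer of at most 1 base. It was found in 83 of the 9749 genes (0.851%) and in 4 of the 95, Bax, Ccng1, Cdkn1a and Ptgds. A match is a description of these letters and not a site of binding. Rps27l, Trp73 and Cd80, also of the p53 lists, held a match too but differed by under 2-fold in both pairs. The 3 matches in shared higher genes of the p53 lists are given 5′ to 3′ on the gene's strand. The match is in capitals and the bases around it in lower case. In Cdkn1a (chr17:29090903-29090972, plus strand) the match begins 51 bases before the start, in Ccng1 (chr11:40755437-40755506, minus strand) 195 bases before it and in Bax (chr7:45467054-45467124, minus strand) 201 bases before it. There was 1 mismatch in Cdkn1a and in Ccng1 and 2 in Bax.
Cdkn1a: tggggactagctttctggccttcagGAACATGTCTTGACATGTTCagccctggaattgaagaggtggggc
Ccng1: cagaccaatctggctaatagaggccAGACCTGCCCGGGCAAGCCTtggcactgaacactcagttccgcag
Bax: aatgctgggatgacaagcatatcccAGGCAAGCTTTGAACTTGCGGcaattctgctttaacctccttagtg

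The lowest adjusted p of the fit belonged to Cplane1, a protein needed to build primary cilia. Its level was -0.84 in vehicle, 5.07 in DEN, -0.52 in ATRA and 4.86 in ATRA+DEN. The mean rise over the 2 pairs was 5.65 ± 0.18 (limma SE, limma adjusted p = 0.00174). Another Cplane1 probe differed by only 0.36 and -0.17, and with the mean of all probes of the gene the rise was 3.78. Dyrk3, a kinase that dissolves stress granules, rose by 2.50 ± 0.14 (adjusted p = 0.0154), from -1.86 to 0.70 and from -1.88 to 0.57.

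The other named genes that passed were Fndc10, Spon2, Atp8b5, Dnaic1, Zfp750, Dcaf4, Lrrc24, Spout1 and Cdc42ep5, with mean rises between 1.46 (Lrrc24) and 3.09 (Atp8b5). Spon2, a secreted matrix protein, was at 0.68 and 3.04 in the first pair and at 0.16 and 2.97 in the second. Nrg1, a growth factor for ErbB receptors, was 8.17-fold and 13.9-fold higher but did not pass (adjusted p = 0.149). Its 2 levels with DEN were 0.07 and 1.12, against -2.96 and -2.67 without.

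Among other genes higher in both pairs was Hr, a corepressor that thyroid hormone induces, at -2.46, 0.13, -1.89 and 2.18 in vehicle, DEN, ATRA and ATRA+DEN. Igfbp1, a liver-secreted binder of insulin-like growth factors, was at 0.59, 2.09, 0.84 and 3.11 in the same order. The early response factors Egr1, with 2.10 and 1.53, and Jun, with 2.03 and 1.00, were in the same class. Of the 11 measured immediate early genes 8 were higher in both pairs, against 28.3% of all genes, with medians of 0.27 and 0.43, and none passed.

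Genes not measured on all 4 arrays were also searched, with all 34741 genes on the array as the base. Of these, 313 were well above background in both arrays with DEN and in neither without, and 148 of the 313 are predicted genes or clones. The count is not one of rises. Only a bound on each difference can be given, against the higher of the dim probe's own level and the lowest level well above background on that array, which was -4.06 in DEN and -3.73 in ATRA+DEN against -3.23 in vehicle and -3.28 in ATRA. Both bounds reached 2-fold in 30 of the 313 genes, and in 82 a bound lay under 1, so that no difference is shown. The named genes have the largest bounds. Ddit4l, a stress-induced brake on growth signalling, was at 0.96 in DEN and 0.70 in ATRA+DEN, at least 18.3-fold and at least 15.8-fold higher. Psrc1, a p53-responsive protein of the mitotic spindle, was at least 12.96-fold and at least 18.2-fold higher, and Ddias, an inhibitor of cell death after damage, at least 20.8-fold and at least 11.5-fold. Cyp4a14, a fatty acid hydroxylase, was at least 14.8-fold and at least 25.4-fold higher. Ddit4l and Psrc1 were also well above background in both day-2 arrays with DEN and in neither of the matched arrays without. Ddias was well above background in the ATRA array of day 2 as well, and Cyp4a14 in both the vehicle and the ATRA array of day 2.

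Of the genes lower in both pairs, Sparcl1, a matrix-associated protein of the vessel wall, was the only named one to pass. It was at 2.38 in vehicle and -0.47 in DEN, and at 2.23 in ATRA and -1.70 in ATRA+DEN. It fell by a mean of 3.39 on the log2 scale over the 2 pairs, with a limma SE of 0.33 (limma adjusted p = 0.0484). It belongs to the list of sinusoidal endothelium markers. The 19 measured genes of that list had medians of -0.61 without ATRA and -0.12 with ATRA. Of these genes 10 were lower in both pairs (33.5% of all genes) and 3 higher in both (28.3%). Stab2, one of its defining genes, was at 4.11, 3.15, 3.44 and 3.00 in vehicle, DEN, ATRA and ATRA+DEN. Lyve1, the other defining gene, did not fall with DEN, at -0.38, -0.33, -1.78 and 0.02 in the same order. The summed linear level of the 21 markers on the array, in units of the 75th percentile, was 177 in vehicle, 107.01 in DEN, 169 in ATRA and 144 in ATRA+DEN. Its part in the Sparcl1 difference was not tested. In whole liver, fewer cells of a type and less RNA per cell cannot be told apart.

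The metallothioneins Mt1 and Mt2, small proteins that bind zinc and copper, were lower with DEN in both pairs. Mt2 was at 3.57 in vehicle and 1.35 in DEN, and at 5.45 in ATRA and 2.42 in ATRA+DEN. Mt1 was at 5.00, 2.64, 4.72 and 3.11 in the same order. Mt2 was thus 4.65-fold and 8.15-fold lower and Mt1 5.12-fold and 3.06-fold lower, with limma adjusted p of 0.0683 and 0.146. The other 6 measured genes of the list of metallothioneins and zinc transporters had medians of -0.06 and 0.06. Their promoters are shown because the core of the metal response element, TGCACNC or TGCGCNC on either strand, gives metallothionein genes their zinc control. It is also common, in 3805 of 9749 promoters (39.0%), and 16 of the 49 shared lower genes with a promoter held it (32.7%). The stretch of Mt2 (chr8:94172370-94172599, plus strand) holds 3 matches before the start, and that of Mt1 (chr8:94179041-94179088, plus strand) holds 1, all in capitals.
Mt2: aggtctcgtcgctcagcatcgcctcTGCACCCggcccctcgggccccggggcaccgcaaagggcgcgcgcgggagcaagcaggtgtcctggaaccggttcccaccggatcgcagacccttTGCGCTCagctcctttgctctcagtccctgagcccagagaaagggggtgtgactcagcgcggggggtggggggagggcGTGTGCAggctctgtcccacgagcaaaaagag
Mt1: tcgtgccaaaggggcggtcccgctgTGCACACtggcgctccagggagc

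Most genes of the list for stress of the endoplasmic reticulum (ER) had lower levels with DEN in both pairs. All 23 genes of the ER stress list were measured, 17 were lower in both pairs (33.5% of all genes) and 3 higher in both (28.3%), with medians of -0.66 without ATRA and -0.53 with ATRA. Without ATRA 10 of the 23 were at least 2-fold lower, against 3.34% of all genes, and with ATRA 3, against 1.45%. None passed the limma fit, though 13 of the 23 had p under 0.05 before adjustment, as did 15.8% of all genes.

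Creld2, a chaperone-like protein that ER stress induces, was at 7.56 in vehicle, 5.08 in DEN, 7.31 in ATRA and 5.90 in ATRA+DEN (adjusted p = 0.0795). Hyou1, an ER chaperone, had levels of 0.17 and -1.67 in the first pair and 0.08 and -1.17 in the second (adjusted p = 0.0816). Derl3, which helps to export misfolded proteins for degradation, was at 3.02, 1.94, 4.23 and 1.84. These 3 formed the list's share of the shared lower class.

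Manf, a secreted ER chaperone, differed by -1.69 and -0.77, and Herpud1, which acts in ER-associated degradation, by -1.72 and -0.53. The transcription factor Atf4 and genes it is known to induce differed among themselves, with Atf4 at -0.13 and -0.05, Ddit3 at -0.19 and 0.29, Trib3 at 0.42 and 0.19, Asns at -0.12 and 0.93 and Chac1 at 0.77 and 0.74. The ER stress element was searched as CCAAT and CCACG with 9 bases of any kind between them, without mismatch and on both strands. It was present in 18 of 9749 promoters (0.185%). Among these were 2 of the 49 shared lower genes with a promoter, Creld2 and Derl3, and 1 of the 95 shared higher ones, Acnat2. The other genes with the element were in neither shared class. In Creld2 (chr15:88819495-88819563, plus strand) it begins 126 bases before the start and in Derl3 (chr10:75893217-75893285, plus strand) 156 bases before it. In both it stands on the opposite strand, so the capitals read as its reverse complement.
Creld2: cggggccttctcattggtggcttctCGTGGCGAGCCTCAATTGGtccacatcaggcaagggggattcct
Derl3: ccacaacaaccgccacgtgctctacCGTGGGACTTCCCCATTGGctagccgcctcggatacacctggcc

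The other large shared falls were in single genes of several functions, and none passed. Sult5a1, a cytosolic sulfotransferase, was at 4.65 and 1.90 in the first pair and 3.89 and 2.08 in the second. Acsm2, a mitochondrial enzyme that activates medium-chain fatty acids, differed by -1.77 in each pair, with levels of 0.98, -0.79, 0.71 and -1.05. Gpat3, which starts triglyceride synthesis, differed by -1.52 and -1.74. Erfl, Clstn2 and the receptor gene Vmn1r214 differed by between -1.75 and -1.58 without ATRA and between -1.63 and -1.60 with ATRA.

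Of the 34741 genes on the array, 73 were well above background in both arrays without DEN and in neither with DEN. Predicted genes or clones make up 31 of the 73, and in 29 of the 73 both bounds reached 2-fold. Spdef, an epithelial transcription factor, was at 2.07 in vehicle and 1.24 in ATRA and at least 70.4-fold and at least 31.3-fold lower with DEN. H19, an imprinted noncoding RNA of fetal liver, was at 1.68 in vehicle and 1.11 in ATRA, at least 46.5-fold and at least 28.6-fold lower. The embryonic globin Hbb-y was at least 10.9-fold and at least 7.76-fold lower. Spdef, H19 and also Actc1 and Obp2a, with the next largest bounds, were not well above background in the vehicle array of day 2.

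Red cell genes had the lowest list medians, -1.56 without ATRA and -0.85 with ATRA, over the 8 of 16 genes that were measured. The adult globins Hbb-bt, at 3.30, 1.40, 2.49 and 1.52 in vehicle, DEN, ATRA and ATRA+DEN, and Hba-a1, at 4.32, 2.53, 3.63 and 2.71, were lower in both arrays with DEN. Klf1, the erythroid transcription factor, differed by -2.03 and -1.11. Alas2, the erythroid enzyme that starts haem synthesis, went the other way, at 2.69, 3.71, 2.63 and 6.33, and was highest in ATRA+DEN. None passed, and the share of blood in the samples was not tested. Near-identical globin copies may share signal on their probes.

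**Figure D3:**
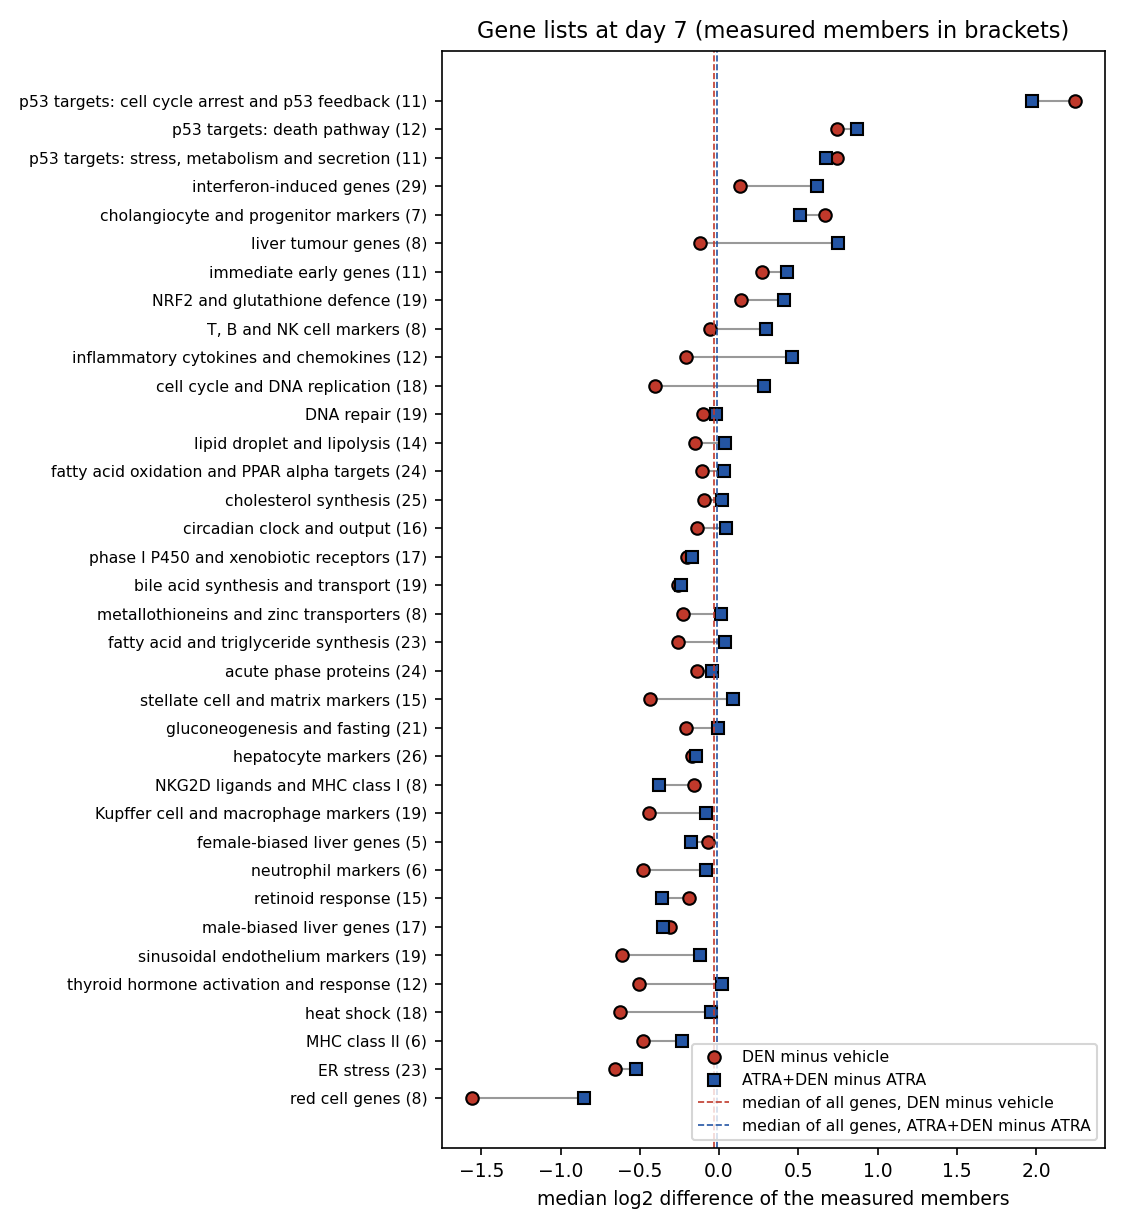
Median log2 difference with DEN over the measured members of each gene list, circles for DEN minus vehicle and squares for ATRA+DEN minus ATRA, with the number of measured members in brackets. Dashed lines mark the medians of all genes, -0.03 and -0.01. The list of p53 arrest genes lies farthest to the right in both pairs, at 2.24 and 1.97, red cell genes farthest to the left, at -1.56 and -0.85, and several lists, such as cell cycle genes at -0.40 and 0.28, have opposite signs.

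Of the 29 measured interferon-induced genes 18 were higher with DEN in both pairs, against 28.3% of all genes, and none passed, with medians of 0.14 without ATRA and 0.62 with ATRA. Mx2, an antiviral protein, was at 0.59 and 2.80 in the first pair and 0.63 and 1.96 in the second (limma adjusted p = 0.0706). Usp18, which restrains interferon signalling, differed by 1.58 and 1.17, and Xaf1, a proapoptotic interferon target, by 1.52 and 1.90. Ifit3 and Stat2, of the same list, stayed near 0, so the list did not move as one.

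Cell cycle and DNA replication genes had medians of -0.40 without ATRA and 0.28 with ATRA over 18 genes. Of these, 3 were higher with DEN without ATRA (46.6% of all genes) and 16 with ATRA (48.2% of all genes). Ccnd1, the cyclin that drives entry into the cycle, differed by 0.80 and 2.15 and was highest in ATRA+DEN at 3.71. The antioxidant list had medians of 0.14 and 0.41, with Nqo1 at 1.58 and 0.74 and Gstt1 at 1.78 and 0.70. Heat shock genes were lower mainly without ATRA, with medians of -0.62 and -0.05, and male-biased liver genes were lower in both pairs in 14 of 17, against 33.5% of all genes, with medians of -0.31 and -0.35. None of these genes passed limma, and the differences between the pairs were not tested for the lists.

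The 15 measured genes of the retinoid response list had medians of -0.19 without ATRA and -0.36 with ATRA. Of these genes 8 were lower in both pairs (33.5% of all genes) and 2 higher in both (28.3%). The retinoid targets Cyp26a1, Cyp26b1 and Rarb were high in the ATRA array and lower in ATRA+DEN. Cyp26b1, a retinoic acid hydroxylase, was at 2.83, 1.79, 5.30 and 3.20 in vehicle, DEN, ATRA and ATRA+DEN, and the retinoic acid receptor Rarb at 0.42, 0.33, 2.06 and 0.54. With Cyp26a1 above, DEN differences were -1.01 and -2.76 for Cyp26a1 and -1.04 and -2.11 for Cyp26b1. Raet1e and Raet1b, stress ligands that natural killer cells recognise, had the same profile, Raet1e at 1.05, -0.42, 4.94 and 1.60 and Raet1b at 1.32, 0.32, 5.07 and 1.42. All 5 were highest in the array titled ATRA. Raet1 genes are near-identical copies, and their probes may share signal. Their list, with MHC class I genes, had 8 measured members. With ATRA, 3 of the 8 were at least 2-fold lower (1.45% of all genes) and 1 at least 2-fold higher (1.89%). Limma's adjusted p for the mean DEN difference was between 0.206 (Cyp26a1) and 0.381 (Rarb) in these 5 genes, and for the difference between the pairs it was 0.951 for Cyp26a1.

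Of the 19 measured Kupffer cell and macrophage markers 12 were lower with DEN in both pairs, against 33.5% of all genes, with medians of -0.44 without ATRA and -0.08 with ATRA. The 8 measured T, B and NK cell markers had medians of -0.06 and 0.30, and 3 of them were at least 2-fold higher with ATRA, against 1.89% of all genes. All 26 hepatocyte markers were measured, with medians of -0.17 and -0.15, and Cps1, of the urea cycle, differed by -1.20 and -0.15. Ncr1, Cela2a, Cpa1, Adipoq and Ckm were not well above background on any of the 4 arrays. The summed linear level of the 21 Kupffer cell and macrophage markers was 134 in vehicle, 101 in DEN, 126 in ATRA and 116 in ATRA+DEN.

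Genes that differed in 1 pair only were more numerous than shared ones. Without ATRA, 271 genes (1.63%) were at least 2-fold higher and 252 (1.52%) at least 2-fold lower with DEN while differing by under 0.5 on the log2 scale with ATRA. In the pair with ATRA alone the counts were 98 (0.589%) and 70 (0.421%). A limma fit with a term for the difference between the pairs called none of 16632 genes. Its lowest adjusted p was 0.127, and 838 genes had p under 0.05 before adjustment, where 831.6 would by chance. No gene is therefore shown to respond in 1 pair only, and the genes below are descriptions of single arrays.

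Dio1, the liver enzyme that activates thyroid hormone, was at 5.53 in vehicle and -0.81 in DEN, an 81.0-fold difference, and at 2.82 in ATRA and 2.64 in ATRA+DEN. Only the DEN array was low among these 4. A level below 0 also occurred in the control siRNA array of day 7, at -0.51. Whether that array had DEN is not settled, since its labels name none but the protocol places the siRNA injection before DEN treatment. Hsd17b13, a lipid droplet enzyme of hepatocytes, was at 5.20, 0.75, 4.66 and 4.71, but its other probe differed the other way, by 5.10 and 4.04. Hspa2, a heat shock protein best known from testis, was at 0.57, -2.13, -1.15 and -1.15, and Rdh1, a retinol dehydrogenase, at -0.05, -2.77, 0.42 and 0.09. Abhd1 and Atp8a1 completed the largest falls, with -2.97 and -2.46.

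In 3 of the 6 largest rises without ATRA the vehicle array stood apart as the low one. Xlr3b, an X-linked gene of lymphoid and germ cells, was at -2.86 in vehicle and between 1.45 and 1.90 in the other 3 arrays. Crym, which binds thyroid hormone in the cytosol, was at -1.23 in vehicle against 2.44 in DEN, 1.24 in ATRA and 1.52 in ATRA+DEN, and Elovl3, which elongates very long fatty acids, was at 3.67 in vehicle and between 5.57 and 5.72 elsewhere. In contrast Ly6e, a lipid-anchored surface protein, was highest in the DEN array at 7.76, against 5.52 in vehicle, 5.58 in ATRA and 6.03 in ATRA+DEN. Oprl1 and Slc17a5 were likewise highest in DEN, with differences of 1.98 and 1.97.

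In the pair with ATRA, Mettl25, a putative methyltransferase, was at 3.55 in ATRA+DEN and between -0.11 and 0.31 in the other 3 arrays. Rsph9, of the cilium, was at 2.58 against -1.03 to -0.32, and Ttbk1, a tau kinase, at 1.29 against -1.83 to -1.36. Ces2a, a carboxylesterase, differed because the ATRA array was low, at 5.34 against 7.96 to 8.21, and so did Bhlha15, at -2.48 against -0.63 to 0.10. Cyp2b10, a xenobiotic-induced P450, was both low in ATRA at 0.76 and high in ATRA+DEN at 3.38, with 1.76 in vehicle and 2.19 in DEN.

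Of the 6 measured MHC class II genes 5 were lower with DEN in both pairs (33.5% of all genes), with medians of -0.48 and -0.23, and 2 were at least 2-fold lower with ATRA (1.45% of all genes). H2-D1, an MHC class I heavy chain, was at 7.44 in vehicle, 7.25 in DEN, 6.69 in ATRA and 4.38 in ATRA+DEN. H2-DMb1, which loads peptide on MHC class II, was at 1.18, 0.83, -0.45 and -2.91, and H2-Aa, a class II chain, at 0.55, 0.17, -0.97 and -2.66. All 3 were lowest in ATRA+DEN, yet Cd74, the class II invariant chain, stayed between 3.10 and 3.95. Zfp963, Dkk4, Krtap31-1 and Tafa5 gave differences between -2.51 and -2.21.

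**Figure D4:**
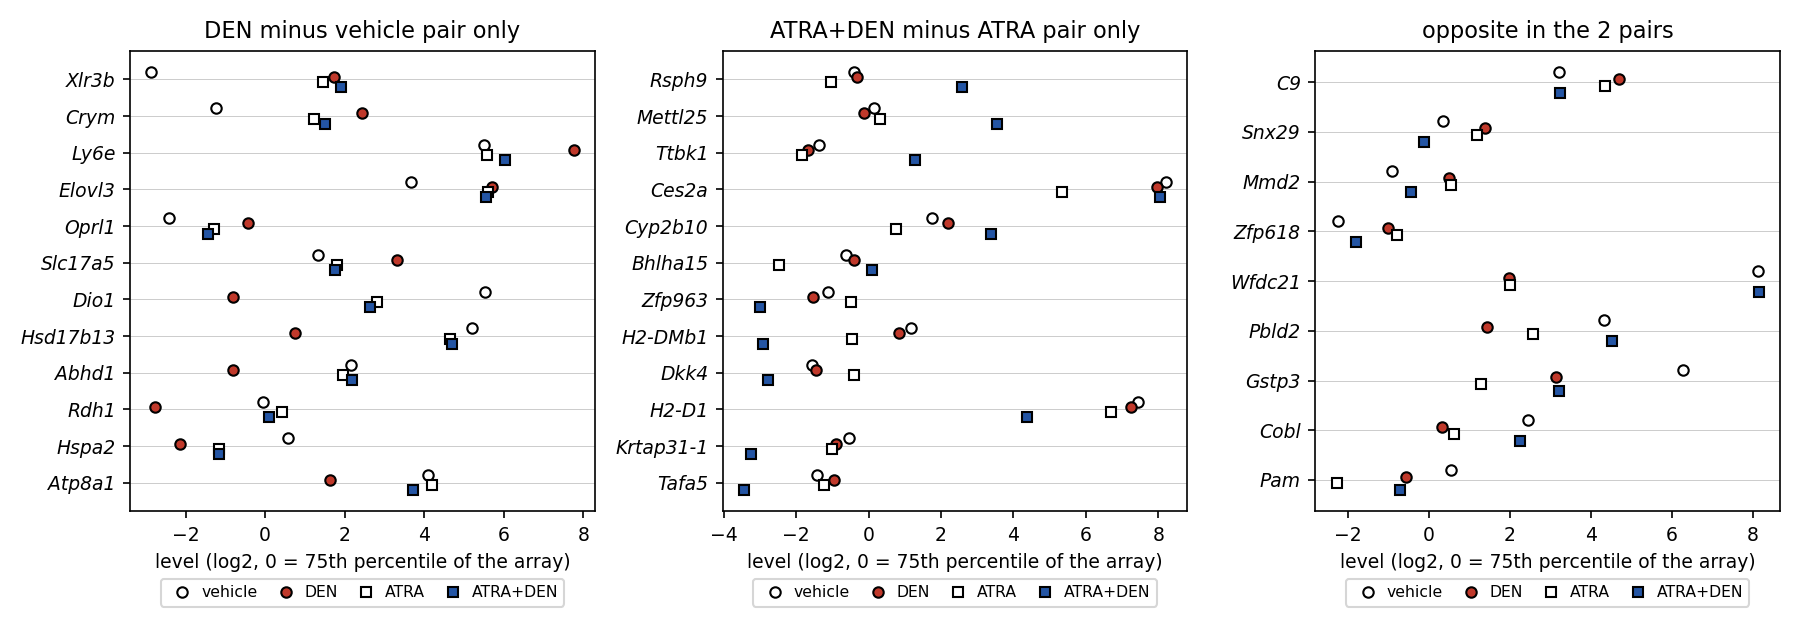
Levels on the 4 day-7 arrays (log2, 0 is the 75th percentile of the array) of the named genes that differed in 1 pair only, left and centre, or in opposite directions, right. One symbol is 1 array, filled with DEN and open without. Dio1 shows 1 low array, DEN at -0.81, and Wfdc21 shows vehicle and ATRA+DEN at 8.14 and DEN and ATRA at 1.97 and 2.00.

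Only 22 genes differed at least 2-fold in opposite directions, 13 (0.0782%) higher with DEN without ATRA and lower with ATRA, and 9 (0.0541%) the reverse. Wfdc21, a secreted protein of the whey acidic protein family, was the extreme, 71.8-fold lower in one pair and 70.9-fold higher in the other. Over the 12 arrays it was below 5 in only 5, namely DEN at day 2 (3.14) and, at day 7, DEN, ATRA, control siRNA (2.90) and G0s2 siRNA (4.71), and at or above 7.06 in the other 7. Low and high arrays occurred with and without DEN.

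The day-2 arrays, which the classes did not use, held the following values for the same genes. Of the 132 shared higher genes measured in both day-2 pairs, 84 (63.6%) were higher with DEN in both, against 3894 of 16270 genes in all (23.9%). Their median difference at day 2 was 0.41 in each pair, against -0.06 and 0.00 for all genes, and 17 were at least 2-fold higher in both, where 33 genes in all were. Of the 83 shared lower genes 44 (53.01%) were lower in both day-2 pairs, against 31.7% of all genes, with medians of -0.56 without ATRA and -0.16 with ATRA. Day 2 itself had 3.18% of genes at least 2-fold apart without ATRA and 2.77% with ATRA.

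Phlda3 was already 4.98 and 4.69 higher at day 2, Gdf15 2.66 and 2.72, and Tnfrsf10b 2.54 and 2.17. Cdkn1a was higher by 2.87 and 1.26. Plk2 differed by 1.03 and -0.14 at day 2 against 4.43 and 2.98 at day 7, Siva1 by -0.02 and 0.02 against 1.66 and 1.61, and Mgmt by 0.51 and 0.50 against 2.31 and 1.87. Sparcl1 differed by -1.47 and -0.50, whereas Mt1 differed by -1.07 and 0.71 at day 2, with opposite signs in the 2 pairs. Whether the day-7 difference exceeds the day-2 difference was not tested for single genes.

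**Figure D5:**
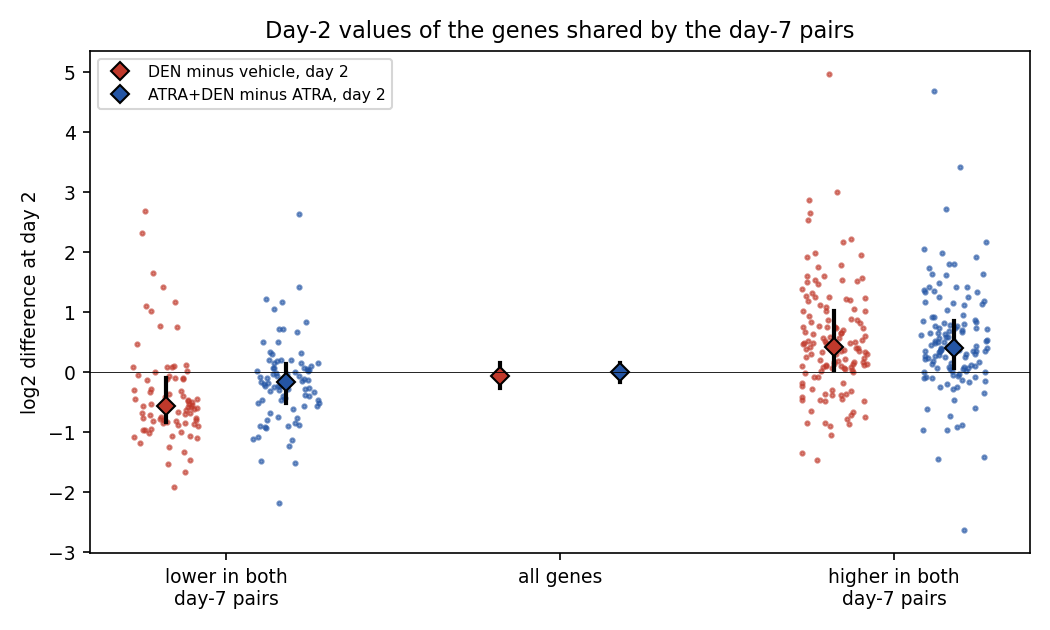
Log2 difference with DEN at day 2 of the genes that were at least 2-fold lower (left) or higher (right) in both day-7 pairs, with all genes measured at day 2 in the middle. Dots are genes, diamonds medians and bars the middle 50% of genes. The medians of the higher genes are 0.41 in each pair, those of the lower genes -0.56 and -0.16, and those of all genes -0.06 and 0.00.

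The 2 siRNA arrays of day 7 come from mice injected with siRNA. The protocol places that injection on the day before DEN treatment, but their own labels name no DEN. They had Cdkn1a at 5.33 with control siRNA and 6.61 with G0s2 siRNA, and Phlda3 at 4.73 and 5.82. These levels lie nearer to those of the arrays titled with DEN than to those without. Of 133 shared higher genes measured there, 78.2% were higher with G0s2 siRNA than with control siRNA, against 61.6% of all genes, with medians of 0.45 and 0.09. G0s2 itself, an inhibitor of triglyceride lipase, was at 3.73 in vehicle, 3.21 in DEN, 4.01 in ATRA and 2.63 in ATRA+DEN.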

How the data were processed

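Agilent 1-colour array files hold processed intensities, background-subtracted by the authors' Feature Extraction run, version 10.7.1.1 per the file headers and 9.5.1.1 per the submitters' processing notes. Log2 processed intensities of non-control spots minus each array's 75th percentile were averaged per probe. The deposited series table of linear intensities served as an alternative. Of 55681 probes, 27235 were named by accession, 3581 by symbol, 565 by synonym and 24300 by the array file. A gene was its probe with the highest mean level, kept where well above background on all 4 arrays. No spot was saturated, and the number of arrays limits the precision. limma 3.58.1 under R 4.3.3 tested 16632 genes with Benjamini-Hochberg adjustment (threshold 0.05, two-sided), the pair as block and 3 residual degrees of freedom, and was tested on simulated data. Probe positions, not printed, are on mm9. Named genes were the 10 largest shared rises and falls, 6 per direction of each single pair, 5 per opposite direction, the 5 largest bounds per direction, up to 5 per list by mean difference, and G0s2, Cdkn1a, Mdm2 and Cyp26a1, leaving out predicted genes and clones. Outside that rule and chosen after their values were seen are Siva1, Dyrk3 and the other genes named because they passed limma, the imprinted genes, and Fas, Sfn, Atf4, Ddit3, Trib3, Asns, Chac1, Ifit3, Stat2, Alb, Apoa1, Ttr, other defining markers, Ptgds, Zmynd12 and Cd59b. Members and lists were chosen with earlier results of these data known. Alternatives were normalization, background correction, filters, thresholds, probe averaging, label source and arrays in the fit. A few genes that the rule or the lists hold are not reported here.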

Additional observations from a re-analysis of the deposited data

Results flagged for a closer look

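The named genes that moved in opposite directions in the 2 pairs are given here, because both arrays of 1 pair differed one way and both arrays of the other pair the opposite way. The difference between the pairs was tested with limma, and no gene passed after adjustment over all genes, with an adjusted p of 0.951 for the 9 genes. Each value is log2, first DEN minus vehicle and then ATRA+DEN minus ATRA.

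Wfdc21 differed by -6.17 and 6.15. Pbld2, of the phenazine biosynthesis-like family, differed by -2.88 and 1.95, and Gstp3, a glutathione transferase, by -3.15 and 1.94. Cobl, which nucleates actin, gave -2.12 and 1.63 and Pam, which amidates peptide hormones, -1.12 and 1.56. In the other direction C9, the last complement component, differed by 1.47 and -1.13. Snx29 differed by 1.03 and -1.29, Mmd2 by 1.41 and -1.01, and Zfp618 by 1.25 and -1.002.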

How the results depend on the processing

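Counts of genes at least 2-fold apart moved with the background filter, the background correction and the fold threshold. They are given as without ATRA, with ATRA, in both pairs and in 1 pair only, against 1163, 616, 221 and 691 as reported. With normexp correction they were 618, 292, 115 and 416, with genes above background on at least 1 array of a pair 2446, 1331, 394 and 1037, and with no filter 4947, 3707, 827 and 3914. At 1.5-fold they were 3442, 2201, 891 and 2983 and at 3-fold 409, 191, 54 and 182. Of the 138 shared higher genes 79 remained with normexp, 126 with quantile normalization, 134 in the authors' value table and 128 with probe means, and of the 83 lower genes 34, 69, 79 and 54. The cause of these shifts was not tested.

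The 20 genes that passed limma became 136 with normexp, 34 with genes above background on at least 1 array, 1 with no filter, 12 without the 4 siRNA arrays, 6 with no pair block and 1 with only the 4 day-7 arrays. With 1 of the day-7 pairs left out the DEN difference rests on a single pair, so no count is given. The difference between the pairs was passed by 2 genes with normexp. No paired analysis by replicate number was possible because each group is 1 array and the labels give no replicate numbers. The 6 pairs of the fit lie on 4 slides, each pair within 1 slide, so the pair block also takes up a slide shift common to both arrays of a pair.

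Grouping by the treatment characteristic in place of the title gave 1270 genes in the second pair and 65 in both, none of the 138 or 83 remained, 0 genes passed limma and 1 passed for the difference between the pairs. The mean DEN difference then took the opposite sign for Phlda3 -0.46, Gdf15 -0.24, Trp53inp1 -0.21, Btg2 -0.26, Ccng1 -0.021, Mt2 1.47, Erfl 1.28, Mt1 0.10, Vmn1r214 0.24, Clstn2 0.21, Gpat3 1.02, Mdm2 -0.22, Cyp26a1 3.84, Atp8b5 -0.41, Cdc42ep5 -0.059, Dyrk3 -0.074, Spon2 -0.29, Spout1 -0.39, Aen -0.43, Bax -0.13, Polk -0.32, Dglucy -0.24, Rps27l -0.14, Mgmt -0.39, Rad51c 0.58, Ercc5 -0.28, Mx2 -0.40, Xaf1 -0.14, Jun -0.60, Nqo1 -0.12, Creld2 0.28, Derl3 0.56, Hyou1 0.20, Manf 0.21, Cyp26b1 1.94, Raet1e 2.96, Raet1b 2.42 and Klf1 0.46. The difference between the pairs took the opposite sign for Rsph9 -3.69, Mettl25 -2.98, Ttbk1 -2.81, Ces2a -2.45, Cyp2b10 -3.05, Bhlha15 -2.82, Zfp963 2.94, H2-DMb1 2.81, Dkk4 2.30, H2-D1 2.49, Krtap31-1 2.57, Tafa5 1.74, Snx29 0.26, Pam -0.44, Rarb 1.60 and H2-Aa 2.07. None of the other alternatives listed here turned the sign of the difference followed for a gene named here, its mean DEN difference or its difference between the pairs. This does not extend to the difference of a single pair, since the other Hsd17b13 probe differed the other way without ATRA, as given above.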

Other observations

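After H19 was seen among the genes lost with DEN, other imprinted genes were looked up, so their values describe and test nothing. Of 18 on the array 11 were measured on all 4 arrays, and 8 were lower with DEN in both pairs (33.5% of all genes) and 1 higher in both (28.3%), with medians of -0.47 without ATRA and -0.42 with ATRA. Dlk1, a fetal growth regulator, was at -0.19 in vehicle and -1.29 in ATRA and not well above background in DEN or ATRA+DEN, at least 14.7-fold and at least 5.44-fold lower. Meg3, a noncoding RNA of the same imprinted cluster, differed by -1.35 and -3.16, and Plagl1 by -1.32 and -0.80. Igf2, the neighbour of H19, was not well above background on all 4 arrays. At day 2 Meg3 differed by 0.46 and 0.33, with the opposite sign.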
